A study of Mus musculus with 14 samples.

Results

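Induced pluripotent stem cells (iPSCs) recovered with 2i were set against embryonic stem cells (ESCs), to see which mRNAs still differed after conversion. The comparison used 4 of the 14 samples of a mouse microarray series, 2 arrays a side and 1 array per sample. Its features were the 33588 probe sets of 45101 that carry exactly 1 gene symbol and lie on an autosome. They stand for 17404 autosomal genes, of which 12191 passed the filter on dim genes and were tested, and 5213 were too dim. The study asked how partially reprogrammed cells become genuine iPSCs.

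The 2i iPSCs came from the female C57BL/6 clones 2B1 and 5C5. These are partial iPSC clones, reprogrammed cells that stalled before pluripotency, and exposure to 2i turned them into iPSCs. 2i is a culture condition with an inhibitor of MEK and an inhibitor of GSK3. The labels do not say whether the inhibitors were still present when RNA was taken. The ESCs were 1 line recovered from blastocysts of Nanog-GFP mice, male and C57BL/6, and the wild-type line EBRTcH3, male and 129sv, both kept in medium with LIF and serum. Sex, culture history and the origin of the cells therefore differ between the groups together and cannot be told apart, and for EBRTcH3 the strain differs too. Each array is a different clone or line, so the spread within a group is the spread between clones or lines. The untreated partial iPSCs of the same clones (2 arrays, LIF and serum) entered the fit to estimate the spread. Embryonic fibroblasts from Nanog-GFP mice, of mixed sex, C57BL/6 and grown without LIF (1 array), are given beside the values.

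ESCs and iPSCs share a core of transcription factors, among them Oct4 (Pou5f1), Sox2 and Nanog, that keeps genes of the early embryo on and genes of differentiated tissue off. Fibroblasts instead make collagens and other matrix proteins, adhesion receptors and contractile proteins. Reprogramming has to silence this fibroblast set and switch on the pluripotency set. Pluripotent cells are also known for a weak response to interferon, the signal that turns on antiviral genes in most differentiated cells.

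The label was first checked with 4 pluripotency genes. Nanog read 12.38 and 12.57 on the log2 scale of RMA signal in the 2i iPSCs of 2B1 and 5C5, and 13.12 and 12.54 in the Nanog-GFP and EBRTcH3 ESCs. It read 3.85 and 4.36 in the partial iPSCs. Zfp42 (Rex1), a marker of naive pluripotent cells, read 12.69 and 12.26 in 2i iPSCs against 12.37 and 12.89 in ESCs, and 2.57 and 2.38 in partial iPSCs. For both genes the 2i and ESC values overlapped, and the partial iPSCs lay far below. Sox2 differed by -0.06 (SE 0.31, adjusted p = 0.945) and Pou5f1 by -0.51 (SE 0.19, adjusted p = 0.288) between 2i iPSCs and ESCs. Sox2 read 4.67 and 3.85 in partial iPSCs. Pou5f1 was already high there (13.25 and 13.16), so it does not mark the conversion. Its 2i values (11.95 and 11.72) lay below both ESC values (12.42 and 12.27). None of the 4 genes passed the limma test, in which differences are log2 units, 2i iPSCs minus ESCs, p-values are adjusted by the Benjamini-Hochberg method over all 12663 tested genes, and a gene is called at an adjusted p below 0.05. All 9 pluripotent stem cell markers chosen for the check lay above the median of the table on all 4 arrays, and 5 did on each partial iPSC array.

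**Figure D1:**
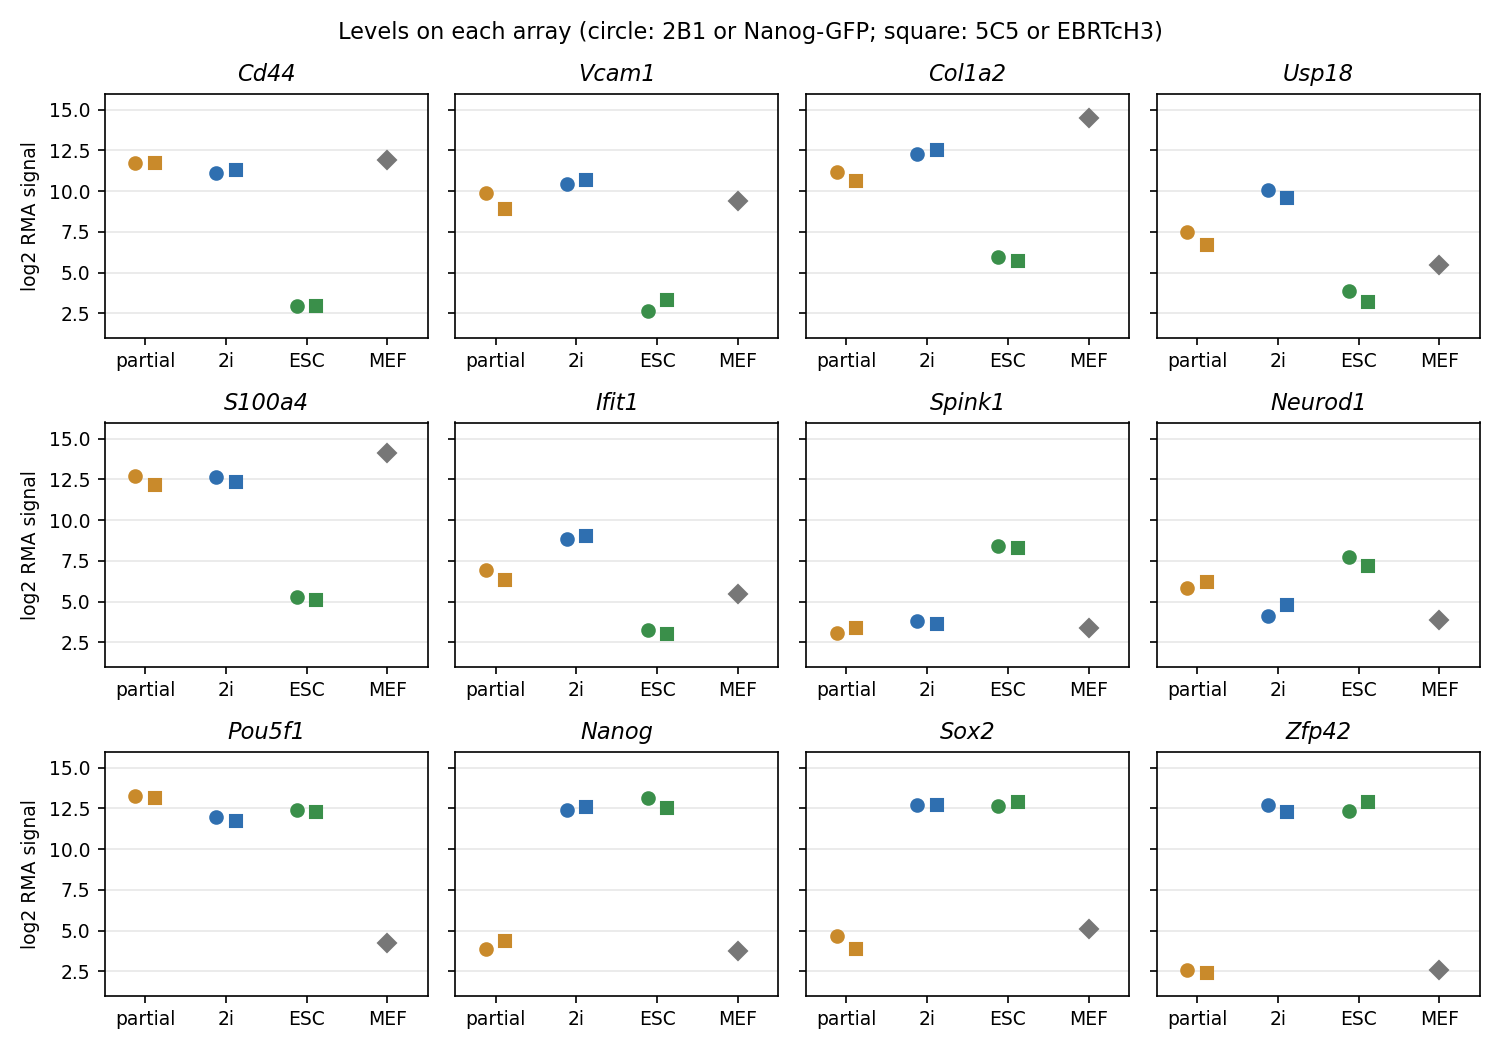
Log2 RMA signal (vertical axis) of 12 genes by group (horizontal axis: partial iPSCs, 2i iPSCs, ESCs and fibroblasts, MEF). Each point is 1 array. Cd44, Vcam1, Col1a2, Usp18, S100a4 and Ifit1 are high in 2i iPSCs and low in ESCs, Spink1 and Neurod1 the reverse, while Pou5f1, Nanog, Sox2 and Zfp42 lie at like levels in 2i iPSCs and ESCs.

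Cd44, Vcam1, Col1a2 and Usp18 were chosen as markers of the remaining difference, and each was far higher in 2i iPSCs than in ESCs. Cd44, a receptor for hyaluronan on the surface of mesenchymal cells, read 11.12 and 11.27 in 2i iPSCs of 2B1 and 5C5 and 2.93 and 2.92 in the Nanog-GFP and EBRTcH3 ESCs. Its difference was 8.28 (SE 0.18, limma adjusted p = 0.000538), or 309.8-fold, the largest of all tested genes. Cd44 read 11.74 and 11.72 in partial iPSCs and 11.93 in fibroblasts, so that on this gene the 2i iPSCs lay near these cells. Vcam1, an adhesion molecule that binds integrins on white blood cells, read 10.46 and 10.68 in 2i iPSCs against 2.66 and 3.28 in ESCs, a difference of 7.60 (SE 0.41, limma adjusted p = 0.00252). Its 2i values lay above those of the partial iPSCs (9.91 and 8.88) and of the fibroblasts (9.40). Of the 61 called genes that the rule for named genes picked, 10 had both ESC values below the 25th percentile of their arrays, in the range of background: Cd44, Vcam1, Usp18, Cavin2, Cdh11, Ankrd1, Fosl2, Egr2, Osmr and Ifit1. Prrx1 and Gbp2, given further on, did too. Their differences are set against background and depend on it in size and in rank.

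Col1a2, a chain of type I collagen, read 12.28 and 12.50 in 2i iPSCs against 5.97 and 5.70 in ESCs. The difference was 6.56 (SE 0.26, limma adjusted p = 0.00199). The partial iPSCs read 11.15 and 10.62, below the 2i iPSCs, and the fibroblasts 14.52, above them. Usp18, a protease that removes the ubiquitin-like protein ISG15 and damps interferon signalling, read 10.06 and 9.57 in 2i iPSCs against 3.86 and 3.18 in ESCs. It differed by 6.30 (SE 0.39, limma adjusted p = 0.00345), against ESC values in the range of background. Its 2i values also lay above the partial iPSCs (7.50 and 6.71) and the fibroblasts (5.48). Of the other probe sets of these genes, 2 of 3 for Cd44, both for Vcam1 and both for Col1a2 were higher on both 2i arrays than on both ESC arrays, and Usp18 has a single probe set.

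Among the called autosomal genes the difference ran almost wholly in 1 direction. Of 12191 tested genes, 469 were called (3.85%): 452 were higher in 2i iPSCs (3.71%) and 17 lower (0.139%). For every called gene, both 2i arrays lay on 1 side of both ESC arrays. Among the genes called higher, 318 differed by at least 2 log2 units and 82 by at least 4. Among those called lower, 5 differed by at least 2 and 1 by at least 4. Of the genes called higher, 58 (12.8%) had both ESC values below the 25th percentile of their arrays. The imbalance was smaller without a test: 1211 genes (9.93%) had group means at least 2-fold higher in 2i iPSCs and 245 (2.01%) at least 2-fold lower. At an unadjusted p below 0.05 there were 1463 higher and 467 lower. This split depended on normalization: it was 1175 and 1058 with each array centred on its median, and 1341 and 707 after quantile normalization. Counting only whether the groups overlapped, 3207 genes (26.3%) were higher on both 2i arrays and 2942 (24.1%) lower, close to balance. The median over all tested autosomal genes was 0.00085, and centring each array on its own median shifts every difference by -0.15, giving 393 genes higher and 29 lower.

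These counts rest on having both 2i arrays. The 2i arrays lay close together, with a median SD of 0.116 per gene against 0.276 between the ESC lines and 0.207 between the partial clones. Without the 2i array of 2B1, limma called 1 gene, Cd44 (adjusted p = 0.0476), with 914 higher and 150 lower at an unadjusted p below 0.05. Without the 2i array of 5C5 it called 0, with 856 higher and 153 lower at an unadjusted p below 0.05. Without the Nanog-GFP array the counts were 661 higher and 87 lower, and without EBRTcH3, which leaves ESCs of the same strain as the iPSCs, 444 higher and 42 lower. Each of these fits gives the lone array the spread estimated from the remaining groups.

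**Figure D2:**
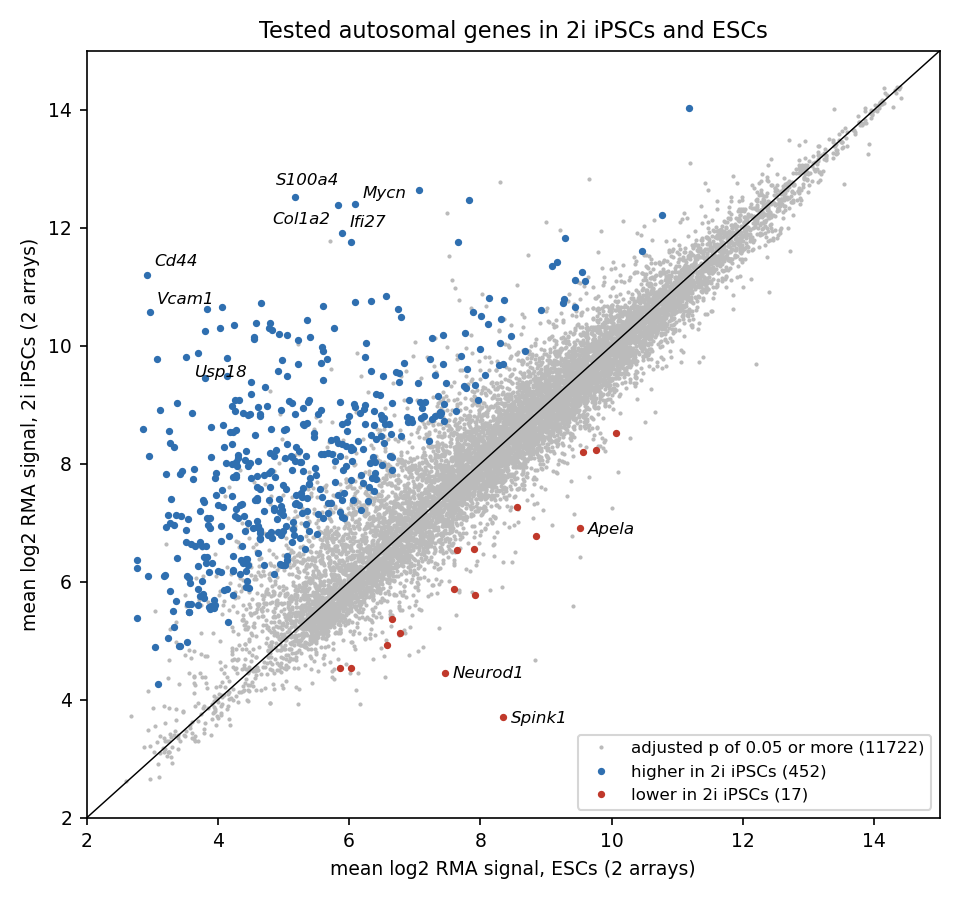
Mean log2 RMA signal of each tested autosomal gene in ESCs (horizontal axis, 2 arrays) and in 2i iPSCs (vertical axis, 2 arrays). The 452 genes called higher in 2i iPSCs lie above the diagonal, among them Cd44 with the largest difference, and the 17 called lower lie below it, with Spink1 the farthest.

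Counts between single arrays placed these differences in scale. The 2i iPSCs of 2B1 and 5C5 differed by at least 2-fold in 191 genes, and the ESC lines in 1901. A 2i array and an ESC array differed in 1825 genes (2B1 and Nanog-GFP), 1904 (5C5 and Nanog-GFP), 2047 (2B1 and EBRTcH3) and 2085 (5C5 and EBRTcH3). At 4-fold the ESC lines differed in 412 genes and the pairs of a 2i and an ESC array in 528, 545, 655 and 693. The 2-fold counts of the mixed pairs thus lay close to that of the ESC lines, and the 4-fold counts above it. The direction was not alike. Of the 1825 genes, 1307 were higher in the 2i iPSCs of 2B1 and 518 lower, and of the 2085 genes, 1562 were higher in those of 5C5 and 523 lower. Between the ESC lines the split was 1074 higher in Nanog-GFP and 827 lower. From the fibroblast array, the 2i arrays differed in 3992 and 3900 genes and the ESC arrays in 4924 and 5096.

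**Figure D3:**
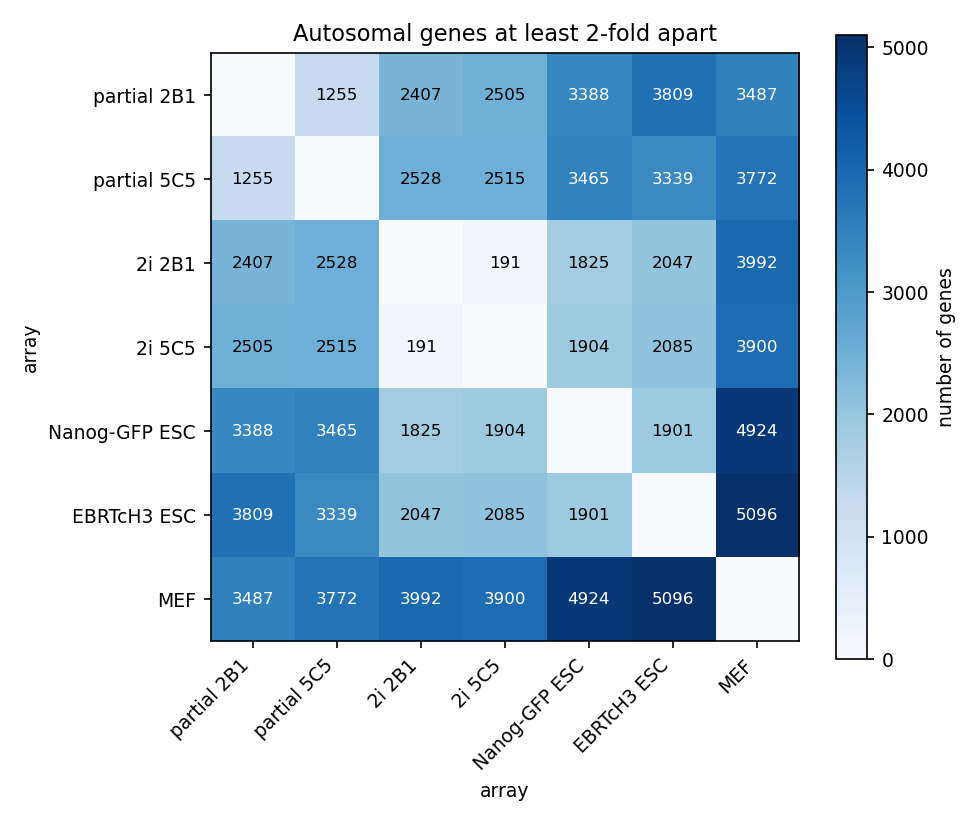
Number of tested autosomal genes at least 2-fold apart between each pair of arrays, among partial iPSCs, 2i iPSCs, ESCs and fibroblasts (MEF). The 2i pair has 191, the ESC pair 1901, and the 4 pairs of a 2i and an ESC array 1825 to 2085.

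Most fibroblast and mesenchymal genes were higher in 2i iPSCs. Of 36 autosomal members of this list, 32 passed the filter, 21 were called higher and 0 lower in 2i iPSCs, and 11 did not pass the test. All 32 differences were above 0, with a median of 2.94 beside 0.00085 over all tested autosomal genes. S100a4, a calcium-binding protein of fibroblasts, read 12.68 and 12.36 in 2i iPSCs against 5.28 and 5.07 in ESCs, a difference of 7.34 (SE 0.27, limma adjusted p = 0.00199). Anxa1, which binds membrane lipids, read 12.59 and 12.69 in 2i iPSCs but 8.14 in Nanog-GFP and 5.99 in EBRTcH3 ESCs, so that its difference of 5.58 was less precise (SE 0.70, limma adjusted p = 0.018). Cdh11, a cadherin of mesenchymal cells, read 7.98 and 8.28 in 2i iPSCs against 2.91 and 3.00 in ESCs, in the range of background (difference 5.18, SE 0.29). Cd44, described above, had the largest difference of the list. The transcription factors Prrx1 (4.27), Twist2 (3.09), Snai2 (2.93), Twist1 (2.28) and Zeb2 (2.01), which act in mesenchymal cells, were called higher too. Vim, Fn1, Cdh2, Snai1 and Zeb1 did not pass; for the intermediate filament vimentin (Vim) the 2i values were 13.02 and 13.19 and the ESC values 12.15 and 10.23.

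Collagens were mostly higher as well. Of 23 autosomal collagen genes, 19 were tested, 10 were called higher and 0 lower, and the median difference was 3.24. Col3a1, the chain of type III collagen, read 10.21 and 10.28 in 2i iPSCs against 3.63 and 3.98 in ESCs (difference 6.44, SE 0.30). Col5a2 differed by 5.59 (SE 0.81) and Col6a1 by 5.56 (SE 0.37), and with Col1a2 and Col3a1 these were the largest. The basement membrane chains Col4a1 and Col4a2 did not pass the test: Col4a1 read 11.06 and 10.91 in 2i iPSCs, but 9.62 in Nanog-GFP and 5.60 in EBRTcH3 ESCs. Col18a1, the source of the fragment endostatin, lay in the opposite direction at -1.79 (SE 0.37, adjusted p = 0.0755) and was not called. Col4a5, an X-linked chain of basement membranes outside the autosomal comparison, read 9.50 and 9.51 against 3.91 and 4.32 (difference 5.39, SE 0.31, limma adjusted p = 0.00305). For Col4a1 the ESC lines lay further apart than the group means.

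Genes linked to TGF-beta and YAP, signals that raise matrix and cytoskeletal genes, were mostly higher. Of 15 tested members of 16 autosomal ones, 8 were called higher and 0 lower, with a median difference of 2.52. Ankrd1, a target of YAP, read 8.54 and 8.56 in 2i iPSCs against 3.23 and 3.28 in ESCs, in the range of background (difference 5.29, SE 0.18). The inhibitors of matrix proteases Timp2 and Timp3 differed by 5.73 (SE 0.53) and 4.88 (SE 0.22), and the receptor kinase Axl by 5.59 (SE 0.42). Tgfbr2, the type II receptor for TGF-beta, differed by 4.21 and the ligand Tgfb3 by 3.48, both called. The common YAP targets Ccn1 and Ccn2 did not pass, with Ccn2 at 10.47 and 10.15 in 2i iPSCs against 9.51 and 9.36 in ESCs.

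Adhesion receptors were split. Of 21 tested members of 26 autosomal ones, 6 were called higher and 0 lower, and the median difference was 0.42. Besides Vcam1, the stem and progenitor cell antigen Cd34 read 9.63 and 9.94 in 2i iPSCs against 3.70 and 4.57 in ESCs (difference 5.65, SE 0.41). Cd47, which signals to macrophages not to engulf a cell, differed by 2.79 (SE 0.33), and the laminin receptor chain Itga7 by 2.06 (SE 0.29). Itga6, a laminin receptor chain of pluripotent cells, differed by 0.04 (SE 0.51) and did not pass. After centring, 5 of these genes were called. Of 17 tested contractile and smooth muscle genes, only Mylk, the kinase of myosin light chain, was called (7.13 and 7.03 in 2i iPSCs, 3.97 and 3.70 in ESCs, difference 3.24, SE 0.20), with 0 lower. That is 5.88% of this list, beside 3.71% called higher over all tested genes.

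Markers of fibroblasts were summed to compare with the fibroblast array. Of 17 markers chosen for fibroblasts, 16 were on the array. Their summed linear signal in the 2i iPSCs was 21.2% and 22.1% of that in the fibroblasts, and in ESCs 4.07% and 7.43%. The untreated partial iPSCs of 2B1 and 5C5 already stood at 17.2% and 18.2%. Most of the ESC sum was Fn1 (fibronectin), which read 49.2% of the fibroblast signal in ESCs and 57.5% in 2i iPSCs. Without Fn1, an alternative chosen after seeing the data, the sums were 17.4% and 17.7% in the 2i iPSCs and 0.567% and 0.518% in the ESCs. In the partial iPSCs of 2B1 and 5C5 they were 12.8% and 9.91%. The share differed from marker to marker in the 2i iPSCs, from 1.53% for Postn and 2.82% for Fap to 57.5% for Fn1. Of the 16 markers, 14 lay above the median of the table on each 2i array, 5 and 6 on the ESC arrays and 16 on the fibroblast array. Lum read 3.35 and 3.23 and Fap 3.53 and 3.73 in 2i iPSCs, at the level of background, against 7.06 and 8.78 in fibroblasts. Vcam1 and Usp18 lay above their fibroblast values in 2i iPSCs, as shown above. In bulk RNA, fewer cells of a type and less RNA per cell cannot be told apart. The part of other cells, such as fibroblasts carried along in the culture, in these differences was not tested.

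**Figure D4:**
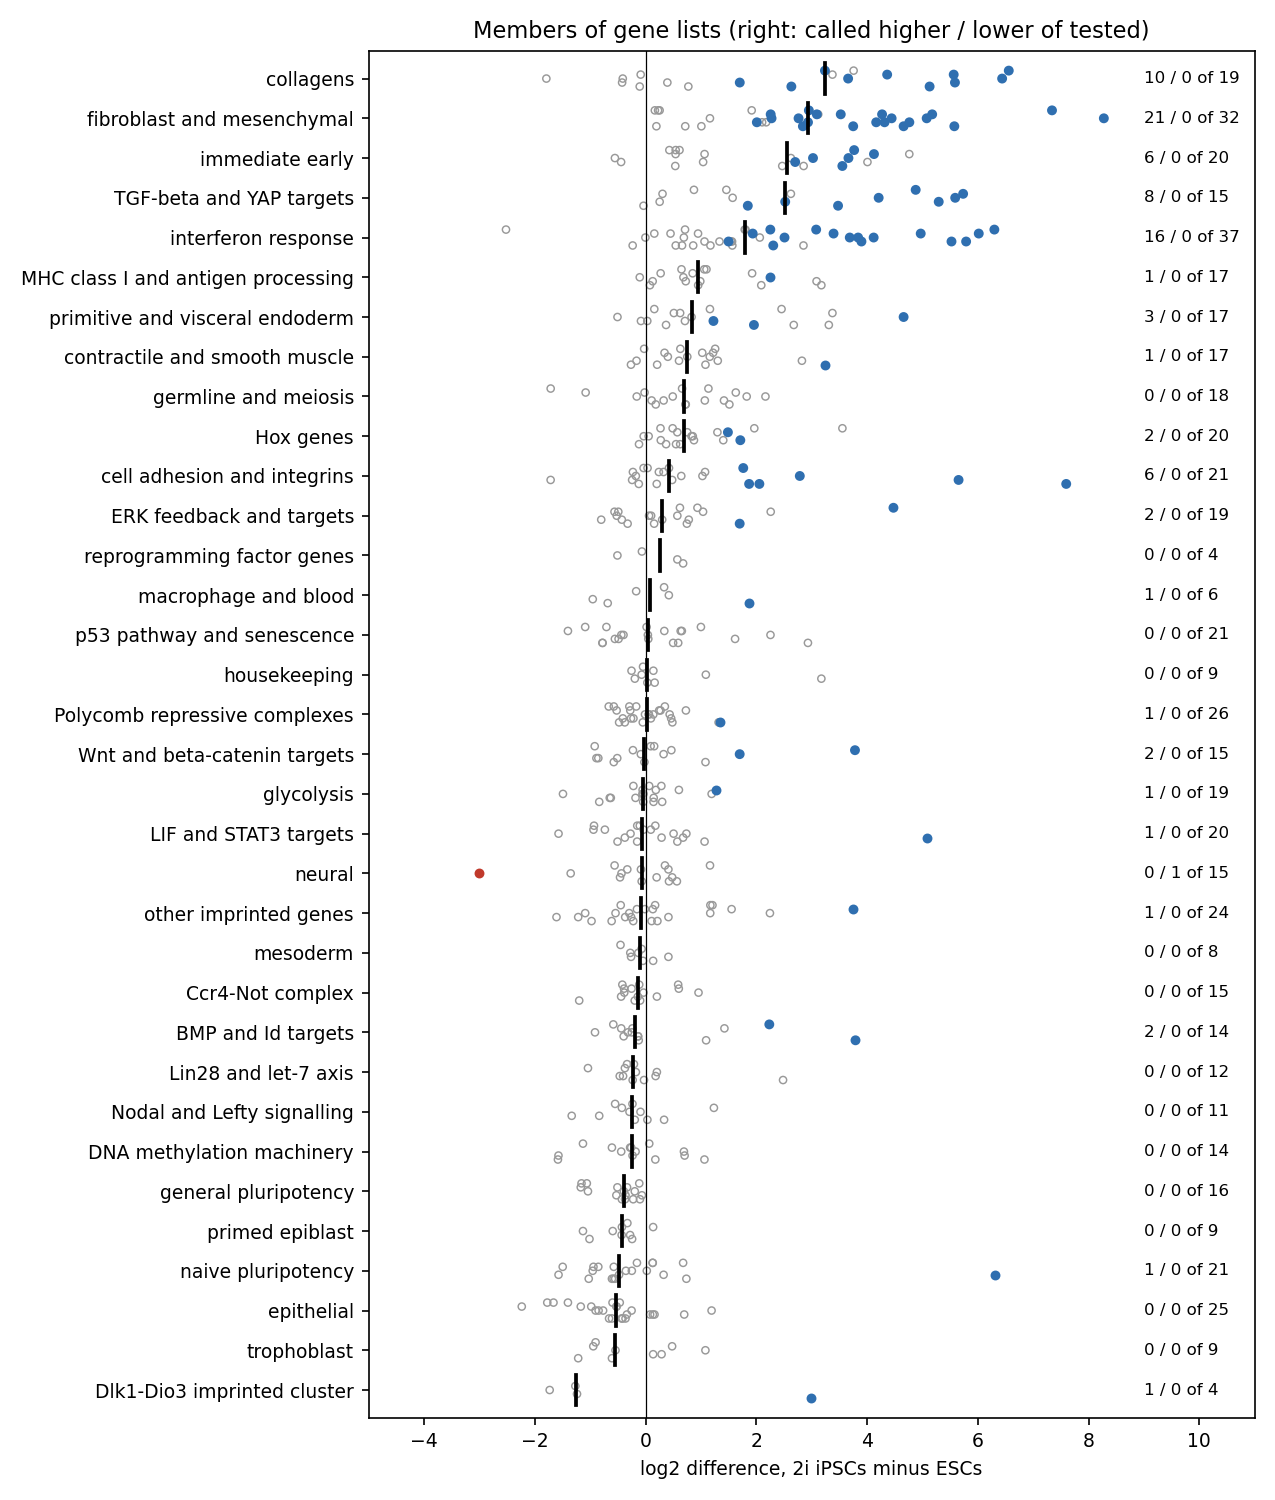
Log2 difference, 2i iPSCs minus ESCs (horizontal axis), of each tested member of the gene lists (rows), with called members filled, the median as a bar, and the counts called higher and lower at the right. The medians of the fibroblast, collagen, TGF-beta and interferon lists lie to the right of 0, though 5 collagens, 3 interferon genes and 1 gene of the TGF-beta list lie left of it, and the 16 general pluripotency genes lie between -1.17 and -0.06.

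Interferon response genes were the other large group. Of 38 autosomal members, 37 were tested, 16 were called higher and 0 lower, and the median difference was 1.79. Many of these genes carry a binding site for interferon regulatory factors near their start, the interferon-stimulated response element. The windows of 4 called genes are shown because they hold such a motif, searched as GAAA, any 2 bases and GAAA on either strand in the 250 bases before to 50 bases after the RefSeq start (GRCm38.p6), and the capitals mark each match. The genes are Ifit1 (chr19:34640639-34640938), Ifit3 (chr19:34583279-34583578), Gbp3 (chr3:142559794-142560093) and Gbp2 (chr3:142620413-142620712), all on the plus strand. In Ifit1, Ifit3 and Gbp3 there are 2 matches each, which overlap in Gbp3.
Ifit1: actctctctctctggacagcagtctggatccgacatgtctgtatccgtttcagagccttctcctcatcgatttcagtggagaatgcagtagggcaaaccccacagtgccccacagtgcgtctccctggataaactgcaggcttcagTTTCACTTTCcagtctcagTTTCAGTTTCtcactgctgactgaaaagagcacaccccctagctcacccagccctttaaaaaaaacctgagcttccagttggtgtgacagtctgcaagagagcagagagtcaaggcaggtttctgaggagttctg
Ifit3: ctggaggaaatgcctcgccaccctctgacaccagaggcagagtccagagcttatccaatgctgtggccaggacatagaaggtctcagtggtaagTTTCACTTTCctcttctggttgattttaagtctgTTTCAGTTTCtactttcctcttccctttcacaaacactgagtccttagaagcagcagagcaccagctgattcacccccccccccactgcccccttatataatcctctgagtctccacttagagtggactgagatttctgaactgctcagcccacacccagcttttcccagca
Gbp3: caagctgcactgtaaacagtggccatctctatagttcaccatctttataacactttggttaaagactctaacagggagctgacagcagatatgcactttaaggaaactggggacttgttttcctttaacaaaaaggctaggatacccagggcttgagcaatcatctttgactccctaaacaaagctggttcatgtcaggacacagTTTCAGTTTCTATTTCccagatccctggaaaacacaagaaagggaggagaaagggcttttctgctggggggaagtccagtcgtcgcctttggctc
Gbp2: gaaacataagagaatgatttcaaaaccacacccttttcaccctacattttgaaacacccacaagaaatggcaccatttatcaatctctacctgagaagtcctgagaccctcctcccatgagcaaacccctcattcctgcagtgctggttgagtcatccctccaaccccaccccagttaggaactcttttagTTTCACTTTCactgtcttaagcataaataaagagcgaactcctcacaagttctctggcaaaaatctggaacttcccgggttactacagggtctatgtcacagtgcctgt
The motif was present in 14 of the 28 tested members with a window (50%), in 6 of the 11 called members with one, and in 8 of the 17 that did not pass. Over all 27025 genes with a window it was present in 3.99%, over the tested autosomal genes in 3.53%, and over those called higher in 7.51%. The other called members with a match were Cxcl10 and Rsad2. A match describes the letters of the window and does not show that a factor binds.

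Usp18, described above, had the largest difference of the list, followed by Ifi27, Ifit1 and Rtp4. Ifit, Gbp and H2 genes have close relatives, and cross-hybridisation of their probe sets was not tested. Ifit1, an RNA-binding antiviral protein whose window is printed above, read 8.81 and 9.01 in 2i iPSCs against 3.25 and 3.00 in ESCs, the latter in the range of background, a difference of 5.79 (SE 0.28, limma adjusted p = 0.00227). The partial iPSCs read 6.96 and 6.29 and the fibroblasts 5.47, so that the 2i values were the highest of the 7 arrays. Ifi27, a mitochondrial protein induced by type I interferon, read 11.88 and 11.93 in 2i iPSCs, 5.77 and 6.01 in ESCs and 9.84 in fibroblasts (difference 6.02, SE 0.24). Rtp4, which restrains viral and interferon responses, read 10.24 and 10.36 in 2i iPSCs against 5.38 and 4.17 in ESCs (difference 5.52, SE 0.52). The guanylate-binding proteins Gbp2 and Gbp3, whose windows are printed above, differed by 3.90 (SE 0.48) and 3.84 (SE 0.60), and Ifit3 by 3.40 (SE 0.33). Of the factors that carry the signal, Irf9 was called higher (8.90 and 8.72 in 2i iPSCs, 7.47 and 7.16 in ESCs, difference 1.50, SE 0.20). Stat2 (0.69) and Irf7 (0.66) and the receptor chains Ifnar1 (-0.002) and Ifnar2 (0.45) did not pass. Ifitm1, a membrane protein that is abundant in ESCs, lay in the opposite direction without passing: 9.46 and 9.91 in 2i iPSCs against 11.55 and 12.86 in ESCs (adjusted p = 0.189).

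MHC class I genes, which present peptides to T cells and respond to interferon, had 1 call among 17 tested members. That is 5.88%, beside 3.71% called higher over all tested genes. H2-M3, a nonclassical class I molecule, read 7.28 and 7.16 in 2i iPSCs against 4.90 and 5.04 in ESCs (difference 2.25, SE 0.22, limma adjusted p = 0.00921). B2m, the light chain shared by class I molecules, read 12.84 and 12.81 in 2i iPSCs, but 8.63 in Nanog-GFP and 10.67 in EBRTcH3 ESCs, and missed the threshold (adjusted p = 0.0798). H2-K1 was similar, at 12.01 and 12.18 against 8.08 and 9.94 (adjusted p = 0.0674). The groups did not overlap in 13 of the 17 genes, all 13 higher in 2i iPSCs, beside 26.3% of all tested genes.

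Immediate early genes, which respond within minutes to growth factors through ERK and serum response factor, had 6 members called higher and 0 lower among 20 tested, with a median difference of 2.55. Jun, a subunit of the AP-1 factor, read 9.09 and 8.99 in 2i iPSCs against 5.74 and 5.01 in ESCs (difference 3.66, SE 0.33). Egr2, a zinc finger factor, read 7.17 and 7.09 against 2.84 and 3.89 (difference 3.77, SE 0.39), and Ier3 differed by 3.55 (SE 0.22). Fosl2 differed by 4.13 (SE 0.20) on its brightest probe set. Its other probe set read 5.54 and 5.46 in 2i iPSCs against 5.69 and 5.56 in ESCs. In the untreated partial iPSCs, Jun read 10.25 and 10.81, Egr2 8.93 and 9.34, and Ier3 10.43 and 10.18. The brightest probe set of Fosl2 read 8.56 and 8.68 there. For each of these genes, both partial values lay above both 2i values. Egr1 and Fos did not pass, and the ESC lines lay far apart for both: Egr1 read 12.17 and 12.34 in 2i iPSCs, 4.85 in Nanog-GFP and 10.13 in EBRTcH3 ESCs. A CArG box, the site of serum response factor, was present in the windows of 1 of the 6 called members (Egr2), in 2 of the 10 that did not pass, and in 1.81% of all genes with a window.

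Genes of ERK feedback and targets, which MEK inhibition lowers, were not lower in the 2i iPSCs by the test. Of 19 tested members, 2 were called higher (10.5%, beside 3.71% over all tested genes) and 0 lower, with a median of 0.30. Fosl1, an AP-1 subunit, read 9.37 and 10.02 in 2i iPSCs against 4.75 and 5.68 in ESCs (difference 4.48, SE 0.49), and Ccnd1 (cyclin D1) 11.12 and 11.36 against 9.76 and 9.33 (difference 1.70, SE 0.24). The feedback inhibitors Spry2 and Dusp6 did not pass: Spry2 read 9.83 and 9.56 in 2i iPSCs against 9.33 and 9.93 in ESCs, and Dusp6 10.07 and 9.75 against 8.10 and 10.23. Spry4 read 7.87 and 7.62 in 2i iPSCs, between the ESC values of 6.69 and 9.78. Among 15 tested Wnt and beta-catenin targets, which GSK3 inhibition raises, Ccnd2 (3.78, SE 0.49) and Ccnd1 were called and 0 were lower. The share of this list called higher was 13.3%. Axin2, a common readout of this pathway, read 6.65 and 6.88 in 2i iPSCs against 7.17 and 7.38 in ESCs (difference -0.51, adjusted p = 0.313).

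Among 20 tested LIF and STAT3 targets, Osmr, the receptor chain for oncostatin M, was the single call (8.26 and 8.45 in 2i iPSCs, 3.12 and 3.40 in ESCs, difference 5.09, SE 0.50). This share of the list, 5%, lies near the 3.71% called higher over all tested genes. Socs3, the feedback inhibitor of STAT3, differed by 0.29 (SE 0.34) and did not pass. Among 14 tested BMP and Id targets, the BMP antagonist Grem1 (3.79, SE 0.24) and Gata2 (2.24, SE 0.27) were called higher and 0 lower. The share of this list called higher was 14.3%. The Id genes did not pass, with Id2 at 8.34 and 7.14 in 2i iPSCs against 8.06 and 9.25 in ESCs. Among 11 tested Nodal and Lefty genes, 0 were called by limma, with 1 higher and 1 lower at an unadjusted p below 0.05. A list of 11 cannot tell 0 calls from the 3.85% called over all tested genes.

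Pluripotency genes gave no lower call but lay mostly on the low side of the ESC levels. Of 16 tested general pluripotency genes, 0 were called, with 0 higher and 2 lower at an unadjusted p below 0.05. All 16 differences were below 0, from -0.06 for Sox2 to -1.17 for Epcam, with a median of -0.38. In 13 of them both 2i values lay below both ESC values, beside 24.1% of all tested genes. Group means were at least 2-fold lower in 4 of the 16 and higher in 0, beside 2.01% and 9.93% of all tested genes. Lin28a, an RNA-binding protein that blocks let-7 processing, read 9.36 and 9.28 in 2i iPSCs against 9.67 and 11.05 in ESCs. Foxd3 read 5.89 and 6.26 against 7.34 and 6.93 (difference -1.06, SE 0.24, adjusted p = 0.105). Of 21 tested naive pluripotency genes, 1 was called higher (4.76%, beside 3.71% over all tested genes) and 0 lower, with a median of -0.48. Group means were at least 2-fold lower in 3 and at least 2-fold higher in 1 of the 21 naive genes. After centring, and after quantile normalization, 1 of them was called lower; in the centred values this was Gbx2, a target of STAT3, at 6.96 and 6.31 in 2i iPSCs against 8.29 and 8.11 in ESCs (uncentred adjusted p = 0.0555). The naive factors Esrrb (-0.57), Klf2 (-0.85), Tfcp2l1 (-0.94) and Nr5a2 (-1.50) did not pass, nor did Klf4 (0.68), Klf5 (0.74) and Tbx3 (0.33), which lay above 0.

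The single naive call, Mycn, depended on the probe set. Its brightest probe set read 12.18 and 12.62 in 2i iPSCs against 6.13 and 6.05 in ESCs (difference 6.31, SE 0.22). The other 2 probe sets lay in the opposite direction, at 9.99 and 10.38 against 10.80 and 10.84, and at 7.62 and 7.96 against 8.58 and 8.51. No direction is therefore given for Mycn as a gene. Of the 469 called genes, 278 had more than 1 probe set. In 170 of these every probe set was without overlap in the same direction, and in 36, among them Dcn, Mylk, Timp2 and Axl, another probe set was without overlap in the opposite direction. For those 4 genes the opposite probe set read below 4.2 on all 4 arrays. This does not hold for all 36. For Fosl2, also among them, the opposite probe set read from 5.46 to 5.69, above the table median of 5.42.

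Genes of the primed epiblast and of later lineages gave 0 to 3 calls a list. Over all tested genes 3.71% were called higher and 0.139% lower. Lists of 8 or 9 genes are too short to tell 0 calls from these shares. Of 9 tested primed epiblast genes, 0 were called, with 0 higher and 1 lower at an unadjusted p below 0.05. The factor Otx2 read 6.65 in the 2i iPSCs of 2B1 and 9.85 in those of 5C5, around the ESC values of 8.08 and 9.07. Of 17 tested primitive and visceral endoderm genes, Pdgfra, Afp and Lamb1 were called higher (17.6%). Lamb1 lost its call after centring (limma adjusted p = 0.061). Pdgfra, a receptor shared by endoderm and fibroblasts, read 9.67 and 9.49 in 2i iPSCs against 5.03 and 4.81 in ESCs (difference 4.66, SE 0.24). Afp, alpha-fetoprotein of the yolk sac, read 6.20 and 6.18 against 4.36 and 4.10, and 3.79 in fibroblasts. Among 9 trophoblast and 8 mesoderm genes, 0 were called by limma, with 0 higher and 2 and 1 lower at an unadjusted p below 0.05. Among 15 neural genes, Neurod1 was called lower (6.67%). Among 6 macrophage and blood genes Cd14, a coreceptor for bacterial lipopolysaccharide, was called higher (16.7%). Each of these shares rests on 1 gene. Cd14 read 6.92 and 6.80 in 2i iPSCs against 5.04 and 4.93 in ESCs (difference 1.87, SE 0.21).

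Hox genes, which set position along the body axis and are silent in ESCs, had 2 calls among 20 tested members of 33. That is 10%, beside 3.71% called higher over all tested genes. The median difference was 0.69, with 18 of 20 above 0. In 14 both 2i values lay above both ESC values and in 0 below, beside 26.3% and 24.1% of all tested genes. Hoxa2 read 5.51 and 5.65 in 2i iPSCs against 3.97 and 3.76 in ESCs (difference 1.71, SE 0.19), and Hoxb2 7.37 and 7.39 against 5.90 and 5.89 (difference 1.49, SE 0.19). Hoxa9 read 4.89 and 6.03 in 2i iPSCs against 4.63 and 3.49 in ESCs and did not pass, beside 11.30 and 11.07 in partial iPSCs. Of 2 tested genes of the two-cell-stage embryo, Usp17la was called higher (7.75 and 7.81 against 5.20 and 4.53, difference 2.92, SE 0.36).

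Of the 4 tested transcripts of the imprinted Dlk1-Dio3 cluster, 1 was called. Dlk1, a protein made from the paternal chromosome, was higher in 2i iPSCs (8.11 and 8.80 against 5.97 and 4.96, difference 2.99, SE 0.48, limma adjusted p = 0.0383). Its call was lost with no filter on dim genes (adjusted p = 0.0524), on the 4 arrays alone (0.0563) and without EBRTcH3 (0.0844). The noncoding RNAs of the maternal chromosome lay in the opposite direction without passing. Meg3 read 9.77 and 11.47 in 2i iPSCs against 11.26 and 12.46 in ESCs, Rian 5.64 and 6.46 against 7.05 and 7.59, and Mirg 6.84 and 7.61 against 8.30 and 9.60. In all 3 the 2i iPSCs of 2B1 read lowest of the 4 arrays. Partial iPSCs read 5.76 and 5.64 for Meg3. Of 24 other imprinted genes tested, Dcn, the matrix proteoglycan decorin, was called higher (3.75, SE 0.42) and 0 lower. The share called higher, 4.17%, lies near the 3.71% over all tested genes.

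DNA methylation and germline genes gave no call, beside 3.85% called over all tested genes. The lists of this paragraph without a call are too short to tell 0 calls from that share. Of 14 tested genes of the methylation machinery 0 were called by limma, with 1 higher and 3 lower at an unadjusted p below 0.05. Dnmt3l, the cofactor of de novo methylation, read 9.16 and 10.47 in 2i iPSCs against 10.67 and 12.12 in ESCs, and Dnmt3b 9.81 and 10.06 against 11.24 and 10.89 (adjusted p = 0.219). Of 18 tested germline and meiosis genes 0 were called, with 3 higher and 1 lower at an unadjusted p below 0.05. Their median difference was 0.69, with 14 above 0 and 4 below. Group means were at least 2-fold higher in 7 and lower in 2, beside 9.93% and 2.01% of all tested genes. Dazl, an RNA-binding protein of germ cells, read 9.43 and 11.55 in 2i iPSCs against 10.25 and 7.08 in ESCs. The ESC lines thus spanned the 2i iPSCs of 2B1 for this gene. Among 25 epithelial genes 0 were called, with a median of -0.53 and 0 higher and 2 lower at an unadjusted p below 0.05. Cdh1 (E-cadherin) read 11.10 and 11.06 in 2i iPSCs against 11.20 and 11.69 in ESCs. Of 21 genes of the p53 pathway 0 were called, with 4 higher and 2 lower at an unadjusted p below 0.05. Cdkn2a, a barrier to reprogramming, read 4.79 and 5.55 against 4.70 and 4.65. Of 19 glycolysis genes Eno3 (1.27, SE 0.18) was called, and of 26 Polycomb genes Yaf2 (1.35, SE 0.22), which lost its call after centring (adjusted p = 0.063). These shares, 5.26% and 3.85%, lie near the 3.71% called higher over all tested genes. Of 15 genes of the Ccr4-Not complex, which shortens mRNA tails, 0 were called, with 1 higher and 0 lower at an unadjusted p below 0.05. Of 12 genes of the Lin28 and let-7 axis, 4 reprogramming factor genes and 9 housekeeping genes 0 were called, with 1, 0 and 1 higher and 0, 1 and 0 lower at an unadjusted p below 0.05.

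Beyond the lists, the 12 largest differences included proteins of caveolae, the pits of the cell surface. Cavin2 read 9.70 and 9.84 in 2i iPSCs against 3.31 and 2.83 in ESCs, in the range of background (difference 6.70, SE 0.36), and Cav2 9.67 and 10.09 against 3.96 and 3.45 (difference 6.18, SE 0.39). Ifi202b, an interferon-inducible DNA sensor, read 10.40 and 10.84 against 3.70 and 3.96 (difference 6.79, SE 0.31). Efemp1, the matrix protein fibulin-3, differed by 6.59 (SE 0.44), with 10.70 and 10.61 against 3.58 and 4.56. Tm4sf1, a membrane protein of the tetraspanin-like family, differed by 6.28 (SE 0.32).

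The 17 genes lower in 2i iPSCs had a median difference of -1.55, beside 2.54 for those called higher, and 5 of them differed by at least 2. Spink1, a secreted trypsin inhibitor, read 3.82 and 3.60 in 2i iPSCs against 8.40 and 8.30 in ESCs, a difference of -4.64 (SE 0.21, limma adjusted p = 0.00199). It read 3.06 and 3.37 in partial iPSCs and 3.36 in fibroblasts, so that among these 7 arrays it was high in ESCs alone. Neurod1, a neuronal transcription factor, read 4.14 and 4.79 in 2i iPSCs against 7.72 and 7.20 in ESCs (difference -3.00, SE 0.33). Apela, a peptide hormone of early embryos, read 7.18 and 6.62 against 9.84 and 9.19 (difference -2.61, SE 0.37). Fgfbp1, which releases fibroblast growth factors from the matrix, read 5.34 and 6.21 in 2i iPSCs, 7.88 and 7.95 in ESCs and 11.38 and 11.55 in partial iPSCs (difference -2.14, SE 0.32). Stmn3, a regulator of microtubules, differed by -2.08 (SE 0.35), a call lost with the clone as a replicate block (adjusted p = 0.0531) and with no filter on dim genes (0.0554). Fgf17, a ligand of the Fgf8 family, read 5.18 and 5.09 against 6.77 and 6.77 (difference -1.63, SE 0.20). The other genes of the 12 lowest were Iqcg (-1.72), D630023F18Rik (-1.64), Mapkapk3 (-1.55), Bckdha (-1.53, adjusted p = 0.0521 with the clone as a replicate block), Hpdl (-1.49) and Fam25c (-1.35). Lrp2, Gng2, Tagln3, Gprin2 and Ngfr complete the 17, at -1.11 to -1.34. In a fit on the 4 compared arrays alone, 9 of the 17 kept their calls. Fgfbp1, Stmn3, D630023F18Rik, Hpdl and Fam25c were among those that lost them.

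Position on the chromosomes was a feature that the choice of samples did not use. The median difference was highest on chromosome 6 (0.20, 631 genes) and lowest on chromosome 7 (-0.13, 991 genes). On chromosome 6, 37 genes were called higher (5.86%, beside 3.71% of all tested autosomal genes) and 0 lower. Chromosomes 1 (5.78%) and 19 (5.75%) had like shares called higher. Its median was not alike between arrays: 0.23 for 2B1 and 0.01 for 5C5 against the Nanog-GFP ESCs, and 0.38 for 2B1 and 0.16 for 5C5 against EBRTcH3. The 2i iPSCs of 2B1 themselves lay above those of 5C5 there by a median of 0.16, the partial iPSCs of 2B1 above those of 5C5 by 0.27, and the Nanog-GFP ESCs above EBRTcH3 by 0.15. On this chromosome 70.8% of genes were higher in the 2i iPSCs of 2B1 than of 5C5. Usp18, Col1a2, Cav2, Ccnd2, Gata2 and Hoxa2 lie on chromosome 6, and the part of the whole chromosome in their differences was not tested. A median on 1 side of 0 in all 4 pairs of a 2i and an ESC array was common: 7 of 19 autosomes were above 0 in all 4 and 5 below. Chromosome 19 lay from 0.12 to 0.14, chromosome 3 from 0.05 to 0.14, chromosome 16 from -0.09 to -0.06 and chromosome 7 from -0.14 to -0.09. With genes at or above the median of the table on all 4 arrays, chromosomes 6 and 7 stood at 0.19 and -0.14. The number of chromosome copies was not measured.

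**Figure D5:**
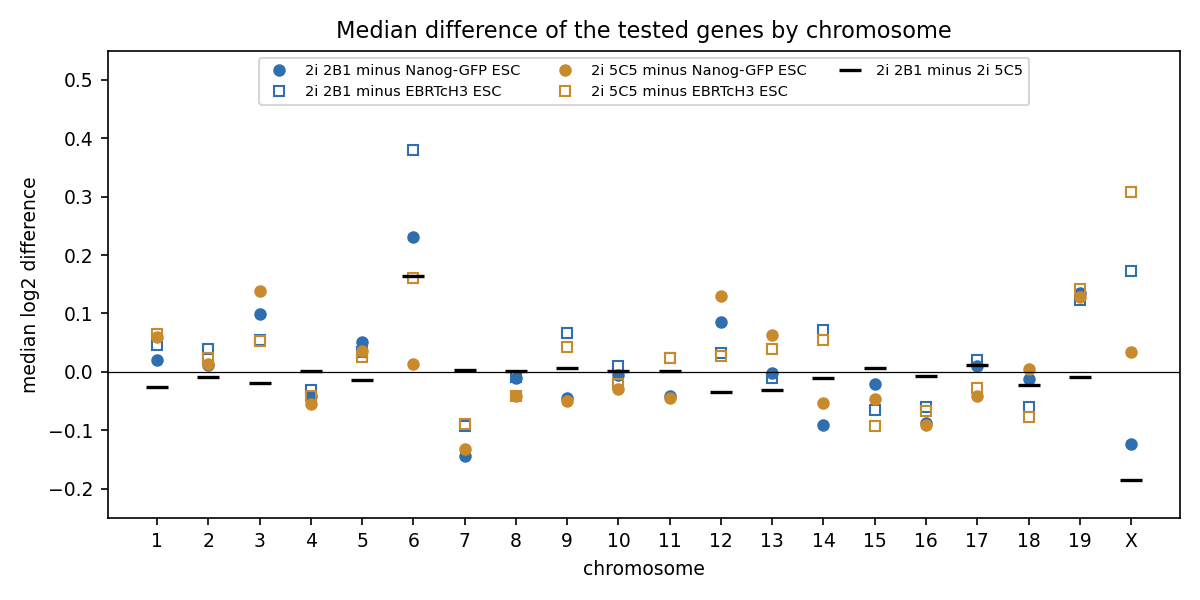
Median log2 difference of the tested genes (vertical axis) by chromosome (horizontal axis), for the 4 pairs of a 2i and an ESC array (points) and the 2i iPSCs of 2B1 minus those of 5C5 (bars). Among the autosomes, chromosome 6 stands apart in the pairs with 2B1 and in the difference between the 2i clones. In that difference the X chromosome lies on the other side of 0, at -0.19 beside 0.16 for chromosome 6. Of the 19 autosomes, 12 lie on 1 side of 0 in all 4 pairs.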

How the data were processed

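RNA of 14 mouse samples was hybridised to 1 Affymetrix array each. The authors' deposited table holds log2 values from RMA in the affy package, per the submitters' processing notes (versions not given in the sources used here). Its values fall into 2 blocks of 7 arrays normalized apart, so only arrays of 1 block were compared. The number of arrays limits the precision.

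Probe sets were named through GEO's platform annotation and placed on chromosomes through the RefSeq table. Per gene, the probe set with the highest mean over 14 arrays was kept. A gene was tested if at least 2 of 14 arrays reached the table median of 5.42. The test was limma 3.58.1 (lmFit, eBayes, R 4.3.3) on 3 groups of 2 arrays, with 3 residual and 2.245 prior degrees of freedom, after a check on simulated data. Nothing in the labels pairs a 2i array with an ESC array.

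Named genes are the 12 highest and 12 lowest called, up to 4 called per list and direction, and 8 fixed genes; others were named after their values were seen. Members and lists were chosen with earlier results of these data known.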

Additional observations from a re-analysis of the deposited data

How the results depend on the processing

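Among called genes, the direction of the imbalance held in every alternative that gave calls. At an unadjusted p below 0.05 the split was near balance after centring (1175 higher and 1058 lower). The number of calls depended most on single arrays: leaving out 1 array in turn gave 0 to 748 genes called, 0 to 661 higher and 0 to 87 lower, and 0 to 116 list members. The call count was 1 without the 2i array of 2B1, 0 without that of 5C5, and 748 without the Nanog-GFP ESCs. Lower calls numbered 29 after centring, 28 after quantile normalization and 29 over all probe sets, against 17. Of the 469 calls, 410 (87.4%) were shared with the centred fit and 378 (80.6%) with a fit on the 4 arrays alone. Of the 17 lower calls, 17 were shared with the centred fit and 9 with the fit on the 4 arrays alone. For the 452 higher calls these numbers were 393 and 369. Counted at 4-fold, a median of 600 genes separated a 2i from an ESC array, against 1975.5 at 2-fold. Taking the clone as a replicate block, which pairs the 2i with the partial arrays only, gave 446 higher and 15 lower, at a correlation of 0.12.

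With the brightest probe set over the 4 compared arrays, Mycn turned to -0.64 and Fosl2 to -0.12. Without 1 array in turn, Sox2 ranged from -0.19 (without Nanog-GFP) to 0.057 (without EBRTcH3) and Zfp42 from -0.41 to 0.10 (without the same arrays), with 0.06 without the 2i array of 5C5. The cause was not tested. Of 61 named called genes, 10 lost the call on the 4 arrays alone, 2 after centring (Lamb1, Yaf2), 2 with the block (Stmn3, Bckdha), 2 with no filter on dim genes (Stmn3, Dlk1), 7 without Nanog-GFP and 13 without EBRTcH3, among them Col5a2, Gata2, Ccnd1 and Eno3. All but Cd44 lost it without the 2i array of 2B1, and all 61 without that of 5C5. Genes near background, among them 5213 dim ones, cannot be judged.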

Other observations

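Gene families were also counted by symbol, after their values were seen. Over all tested autosomal genes 3.71% were called higher and 0.139% lower. The families share members with the lists, among them Gbp2, Gbp3, Cxcl10, S100a4 and Anxa1, so the family counts are not separate from those above. Chemokine ligands, which attract white blood cells, had 7 called higher and 0 lower among 16 tested, with a median difference of 1.18. Ccl2 read 10.43 and 10.10 in 2i iPSCs against 5.47 and 4.18 in ESCs, a difference of 5.44, and Ccl5 (4.88), Cxcl12 (4.82), Ccl9 (4.73) and Cxcl1 (4.54) followed. Of the 7, Cxcl12 and Cx3cl1 each had another probe set without overlap in the opposite direction. The cytokine Il6 read 6.60 and 6.13 against 3.08 and 2.47, in the range of background, and the prostaglandin enzyme Ptgs2 10.34 and 10.36 against 3.56 and 4.93; both were called. Of the guanylate-binding and Irgm GTPases, which act against intracellular microbes, 7 of 9 were called higher, with a median of 2.98.

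Caveolins and cavins, which shape caveolae, had 5 of 6 called higher with a median of 4.80, among them Cav1 (5.82). Annexins, which bind membrane lipids, had 4 of 9 called higher, S100 proteins 2 of 9 (1 after centring) and serpins 2 of 14. Among families of other functions, 0 of 20 keratins, 0 of 48 ribosomal protein genes and 3 of 285 Zfp zinc finger genes were called. The families of 20 and 48 genes are too small to tell 0 calls from the 3.71% called higher over all tested genes.

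X-linked genes were kept apart because the groups differ in sex. Of 420 tested, 14 were called higher (3.33%, beside 3.71% of the autosomal genes) and 1 lower, with a median of 0.11. This median was not alike between arrays. It was -0.12 for 2B1 and 0.03 for 5C5 against the Nanog-GFP ESCs, and 0.17 and 0.31 against EBRTcH3. The 2i iPSCs of 2B1 lay below those of 5C5 by a median of 0.19 (difference -0.19). Bgn, the matrix proteoglycan biglycan, read 11.91 and 12.16 in 2i iPSCs against 5.17 and 4.74 in ESCs (difference 7.08, SE 0.29). Eif2s3y, on the Y chromosome, read 2.95 and 2.92 in the female 2i iPSCs and 9.34 and 10.21 in the male ESCs, as labelled. Of 3 probe sets for Xist, which is made from an inactive X, 1 read 7.93 and 9.14 in 2i iPSCs against 8.42 and 9.03 in the male ESCs. The other 2 read 2.78 and 4.95, and 3.06 and 3.73, in 2i iPSCs, and 3.44 and 3.53, and 3.20 and 3.20, in ESCs, near background except 4.95 in the 2i iPSCs of 5C5. No Xist level is therefore given for the gene.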
